A study of Mus musculus with 12 samples.

Results

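The MAP kinase phosphatase genes examined here were Dusp1, Dusp2, Dusp4, Dusp5, Dusp6, Dusp7, Dusp8, Dusp10 and Dusp16, listed by name as the dual-specificity phosphatases that switch off ERK, JNK and p38. They are 9 of 21900 protein-coding genes with a RefSeq position on the mouse genome build GRCm38. A FRA-1 peak was counted for a gene when it lay in the gene body or within 20 kb of it, or when the deposited tables joined it to the gene symbol. In all, 63 of 300608 regions of merged peaks met this rule.

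These enzymes remove the phosphates from both the threonine and the tyrosine that activate a MAP kinase, and so end its signal. Many of the genes are themselves induced by MAP kinase signaling, which makes the phosphatases a negative feedback. In macrophages, Dusp1 is known for limiting p38 and JNK activity and cytokine production after LPS.

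FRA-1, encoded by Fosl1, is a member of the AP-1 transcription factors. Its binding was measured by chromatin immunoprecipitation and sequencing (ChIP-seq) in adherent peritoneal macrophages of 8-week-old mice, left unstimulated or treated for 1 h with LPS or with apoptotic cells (1:5), with 3 replicates each. The sample records give a mixed 129/C57Bl6 background and elicitation with 4% thioglycollate for 72 h, whereas the design text gives C57Bl/6 mice and names only lavage. The LPS dose is 10 µg/mL in the design text and 1 µg/mL in the sample records. The labels name no Fosl1 deletion in any group, and no FRA-1 deficient control was among the samples.

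A peak is a stretch where the sequenced fragments piled up above background, and its score is a Phred-scaled p-value, higher for a smaller p. Replicates had 20981 to 28314 peaks without stimulation, 39728 to 63010 after LPS and 31501 to 79474 after apoptotic cells, and the third apoptotic cell replicate had the most. The replicates fell into a narrow class (unstimulated 3, LPS 1, LPS 3, apoptotic cells 3) and a wide class (the other 5) by their smallest peak width. Unstimulated replicate 3 stood apart by the size of its overlap with LPS replicates 1 and 3 and with the apoptotic cell replicates. LPS replicates 1 and 3 overlapped 30.7% and 34.3% of its peaks, and unstimulated replicates 1 and 2 overlapped 9.81% and 10.4%. For unstimulated replicate 1 the overlap with the same LPS replicates was 12.4% and 13.3%, and for unstimulated replicate 2 it was 15.8% and 16.8%. These values too exceeded the overlap of unstimulated replicates 1 and 2 with each other (7.42% and 8.97%). Both LPS replicates had more peaks than any unstimulated one. LPS replicate 2 shared 11.5% and 12.5% of its peaks with the other LPS replicates, whereas LPS replicate 3 overlapped 46.3% of the peaks of LPS replicate 1. The apoptotic cell replicates overlapped 22.0%, 18.9% and 20.2% of the peaks of unstimulated replicate 3, and LPS replicate 2 overlapped 13.4%. For unstimulated replicate 1 the apoptotic cell values were 10.9%, 10.3% and 11.5%, and for unstimulated replicate 2 they were 14.2%, 13.0% and 13.9%. All 7 macrophage marker genes and all 12 markers of B cells, T cells, neutrophils and mesothelial cells had a peak in at least 1 replicate, so that binding near markers could not check the cell type. A peak table also cannot tell apart more cells with FRA-1 bound from more FRA-1 bound per cell.

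AP-1 proteins bind TGANTCA, and with partners of the CREB/ATF family also TGACGTCA. Both were searched on both strands in the 250 bases before to 50 bases after the transcription start (RefSeq, GRCm38.p6). TGANTCA was in 0 of 8 phosphatase gene promoters and in 7.81% of all 32851 promoters. TGACGTCA was in 2 of 8, Dusp1 and Dusp8, and in 1.79% of all promoters, and no stretch can match both motifs at once. In Dusp1 it extended from 143 to 136 bases before the start, and in Dusp8 from 107 to 100 and from 63 to 56 bases before it. These promoters are shown because they hold an AP-1 related motif, and Dusp2 because most of its LPS peaks lay upstream of the gene. Each runs 5′ to 3′ in the direction of transcription over the 250 bases before the start, with TGACGTCA in capitals.
Dusp1 (chr17:26508473-26508722, minus strand): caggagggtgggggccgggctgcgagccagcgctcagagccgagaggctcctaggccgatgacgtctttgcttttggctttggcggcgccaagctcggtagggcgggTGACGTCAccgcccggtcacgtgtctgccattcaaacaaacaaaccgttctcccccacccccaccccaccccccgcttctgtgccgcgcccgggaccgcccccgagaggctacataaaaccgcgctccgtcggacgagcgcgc
Dusp8 (chr7:142095285-142095534, minus strand): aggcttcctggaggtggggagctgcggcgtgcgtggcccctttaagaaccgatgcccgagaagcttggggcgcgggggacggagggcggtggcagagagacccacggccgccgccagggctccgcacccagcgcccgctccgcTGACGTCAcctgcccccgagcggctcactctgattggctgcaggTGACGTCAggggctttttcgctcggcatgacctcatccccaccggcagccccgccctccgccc
Dusp2 (chr2:127335909-127336158, plus strand): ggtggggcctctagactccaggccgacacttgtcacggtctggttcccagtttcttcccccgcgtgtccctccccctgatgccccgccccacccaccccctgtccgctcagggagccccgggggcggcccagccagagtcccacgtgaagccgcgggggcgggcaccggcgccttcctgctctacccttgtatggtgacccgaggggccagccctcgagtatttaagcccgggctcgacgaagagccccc

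No FRA-1 peak of any replicate lay at these promoters. From 1 kb before to 100 bp after the transcription start, 0 of 8 phosphatase genes had a peak, against 14.2% of the protein-coding genes with a listed start. From 4 kb before the start, 1 of 8 had a peak, Dusp6, against 42.5% of genes. Both counts hold for 1 listed start per gene. For Dusp16 this was chr6:134792628, whereas its gene body reaches further upstream, to chr6:134807063. Near that outer end, apoptotic cell replicate 3 had a peak at chr6:134806826-134807019, and a region with peaks of 3 replicates lay 3914 bp beyond it. Neither entered these counts. A motif match is a description of the letters and not evidence of binding.

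The tables listed 74 peaks around the 9 genes, 8 in unstimulated macrophages, 35 after LPS and 31 after apoptotic cells. The unstimulated replicates had 2, 1 and 5 of them, the LPS replicates 11, 10 and 14, and the apoptotic cell replicates 6, 4 and 21. The means were 2.67 ± 2.08, 11.7 ± 2.08 and 10.3 ± 9.29 (SD, n = 3 each). All LPS values were above all unstimulated values, whereas the second apoptotic cell replicate lay below unstimulated replicate 3.

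**Figure D1:**
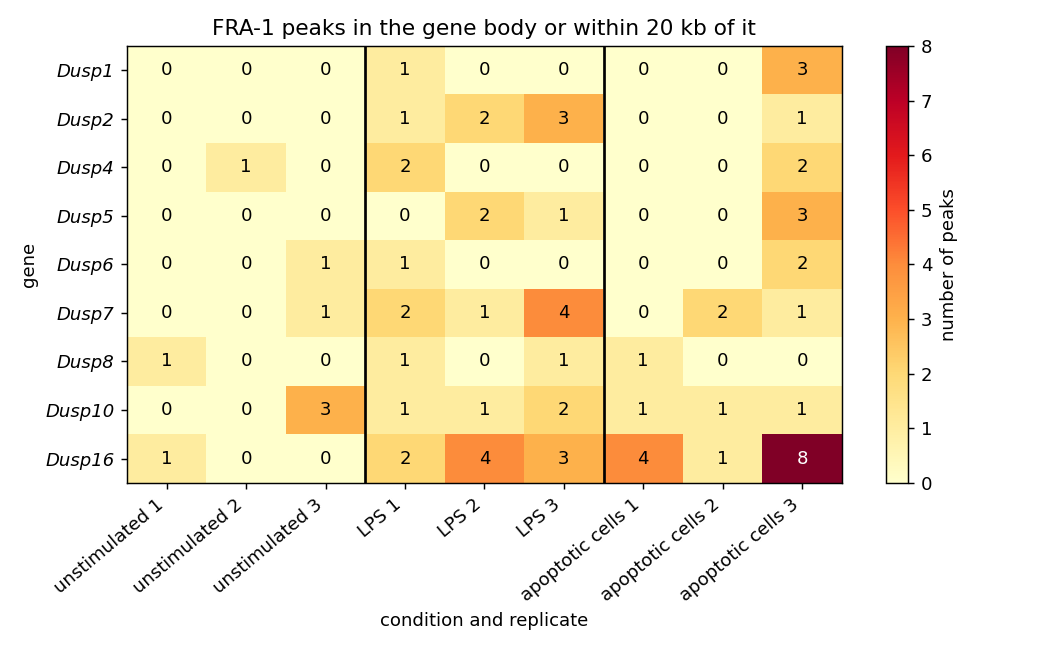
Number of FRA-1 peaks in the gene body or within 20 kb of it, for each gene (rows) and replicate (columns). Dusp2 and Dusp16 have more peaks in each LPS replicate than in any unstimulated replicate, and apoptotic cell replicate 3 holds 21 of the 31 peaks of its condition.

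Since the replicates differed in their total number of peaks, the sums were also set against it. Per 10000 peaks of the replicate, the phosphatase genes had 0.789, 0.477 and 1.77 peaks without stimulation, 2.39, 2.52 and 2.22 after LPS, and 1.47, 1.27 and 2.64 after apoptotic cells. The means were 1.01 ± 0.673, 2.38 ± 0.148 and 1.79 ± 0.741 (SD, n = 3 each), and the LPS values again lay above all unstimulated values. LPS exceeded unstimulated by 1.37 peaks per 10000, by 0.54 within the narrow class, which holds 1 unstimulated replicate, and by 1.88 within the wide class, which holds 1 LPS replicate. With only the 20981 highest-scoring peaks of each replicate, the sums were 1, 1 and 2 without stimulation, 2, 4 and 2 after LPS, and 2, 3 and 2 after apoptotic cells, so that LPS and unstimulated values overlapped.

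Per 100 kb of window, the phosphatase genes had 0.363, 0.182 and 0.908 peaks in unstimulated macrophages, where all protein-coding genes had 1.03, 0.828 and 1.16. After LPS the values were 2.00, 1.82 and 2.54 against 1.95, 1.56 and 2.87. After apoptotic cells they were 1.09, 0.726 and 3.81 against 1.62, 1.26 and 3.30. The phosphatase genes were thus below the average of all genes in each unstimulated replicate, and on both sides of it in the stimulated ones. Over all replicates, a phosphatase gene had a median of 6.0 peaks in a median window of 52.3 kb, and a protein-coding gene 9.0 peaks in 57.1 kb.

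**Figure D2:**
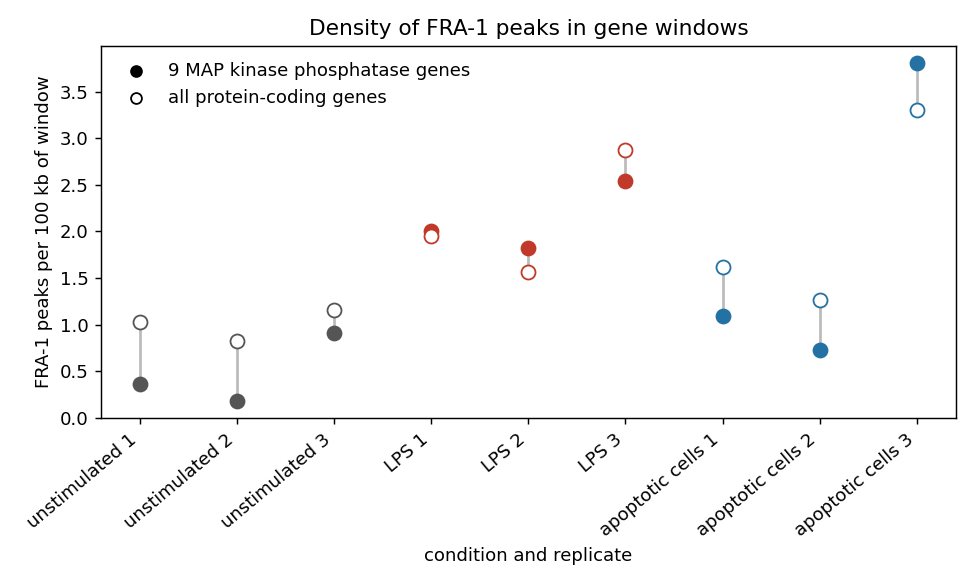
FRA-1 peaks per 100 kb of gene window (gene body and 20 kb on each side) in each replicate, for the 9 phosphatase genes together (filled) and all protein-coding genes (open). The unstimulated replicates show the phosphatase genes below all genes, and LPS 1, LPS 2 and apoptotic cells 3 show them above.

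In unstimulated macrophages, 6 of 9 phosphatase genes had a peak in at least 1 replicate (78.1% of protein-coding genes did), and Dusp1, Dusp2 and Dusp5 had none listed. All 9 had a peak in at least 1 LPS replicate (92.2% of genes) and in at least 1 apoptotic cell replicate (93.0%). A peak in every LPS replicate was listed for 4 of 9, Dusp2, Dusp7, Dusp10 and Dusp16 (42.5% of genes), and in every apoptotic cell replicate for 2 of 9, Dusp10 and Dusp16 (37.0%). As shares of the 9 phosphatase genes these counts were 66.7% for unstimulated, 44.4% for every LPS and 22.2% for every apoptotic cell replicate.

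Each LPS replicate had more peaks than each unstimulated replicate at 2 of 9 genes, Dusp2 and Dusp16, and at 9.87% of all protein-coding genes. The reverse held for 0 of 9 (0.187% of genes). Without unstimulated replicate 3 the count was 4 of 9, with Dusp7 and Dusp10 added, against 16.6% of genes. Within the narrow class, LPS replicates 1 and 3 both exceeded unstimulated replicate 3 at 4 of 9 (Dusp2, Dusp7, Dusp8 and Dusp16; 38.4% of genes). Within the wide class, LPS replicate 2 exceeded unstimulated replicates 1 and 2 at 5 of 9 (Dusp2, Dusp5, Dusp7, Dusp10 and Dusp16; 33.5%). Fewer replicates make each of these conditions easier to meet, so that the counts are read against their own shares and not against the 2 of 9. With equal numbers of top-scoring peaks it was 0 of 9 (1.78% of genes).

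For apoptotic cells, 0 of 9 genes had more peaks in each treated than in each unstimulated replicate (6.56% of genes), and 0 of 9 had fewer (0.169%). With equal numbers of top-scoring peaks this became 1 of 9, Dusp16, with 0, 0 and 0 against 1, 1 and 2 peaks (1.37% of genes). Between LPS and apoptotic cells, 0 of 9 genes had higher counts in each LPS replicate (1.99% of genes) and 0 of 9 in each apoptotic cell replicate (1.28%). The comparisons of LPS and of apoptotic cells with no stimulation share the unstimulated replicates. The smallest two-sided p that 3 against 3 replicates allow in an exact permutation test is 0.1, so that no single gene could reach the usual threshold. The sample records name the same 3 mice in all conditions, whereas the design text counts separate animals for each condition. No score column is tied to a mouse, so that the replicates were compared as unpaired although the conditions may share mice, and the p-values measure the spread between replicates only.

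Among the phosphatases that act in the nucleus, Dusp1, an immediate early gene whose product prefers p38 and JNK, had 0, 0 and 0 peaks without stimulation, 1, 0 and 0 after LPS, and 0, 0 and 3 after apoptotic cells. It lies on chr17:26505591-26508472 and is transcribed towards lower coordinates. Its only region with peaks in more than 1 replicate lay at chr17:26504536-26504835, 756 bp beyond the 3′ end of the gene. There LPS replicate 1 scored 186.36, at the 77.8th percentile of its own peaks, and apoptotic cell replicate 3 scored 62.58, at the 6.00th percentile. The other peaks of Dusp1, both of apoptotic cell replicate 3, lay 6610 and 16897 bp upstream with scores of 55.43 and 92.73. At Dusp1 the values of each treatment overlapped those without stimulation (exact permutation test, two-sided, p = 1.0 for each, n = 3).

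Dusp2, a phosphatase of immune cells that acts mainly on ERK and p38, lies on chr2:127336159-127338377 and is transcribed towards higher coordinates. It had 0, 0 and 0 peaks without stimulation, 1, 2 and 3 after LPS, and 0, 0 and 1 after apoptotic cells. The LPS mean was 2.0 ± 1.0 against 0.0 ± 0.0 (SD, n = 3; exact permutation p = 0.1, which is the lowest value reachable), with all 3 LPS replicates above all unstimulated ones. Against apoptotic cells (0.33 ± 0.58, SD, n = 3) the exact permutation p was 0.2, as the lowest LPS replicate equalled the highest apoptotic cell replicate. With equal numbers of top-scoring peaks, LPS replicate 2 alone kept peaks at Dusp2.

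Of the 6 LPS peaks of Dusp2, 5 lay upstream. A stretch of 4473 bp at chr2:127324591-127329063, between 7096 and 11568 bp before the transcription start and within the noncoding gene Gm46762, held 4 peaks of all 3 LPS replicates and 0 of the other conditions. LPS replicate 2 scored 146.49 there, at its 65.1st percentile, LPS replicate 3 had peaks of 136.35 and 156.88, at the 28.9th and 38.1st percentile, and LPS replicate 1 scored 72.72, at the 8.15th percentile. None of these 4 peaks overlapped another. Looked for after the data were seen, a 5 kb area with a peak of every LPS and no unstimulated replicate was present at 1 of 9 phosphatase genes and at 7.05% of protein-coding genes. The same with apoptotic cells held for 0 of 9 (3.01% of genes). Downstream of Dusp2, LPS replicate 2 (187.03) and apoptotic cell replicate 3 (111.27) each had a peak inside the neighboring gene Astl.

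Dusp4, an inducible nuclear phosphatase, lies on chr8:34807610-34819894. It had 0, 1 and 0 peaks without stimulation, 2, 0 and 0 after LPS, and 0, 0 and 2 after apoptotic cells, so that all conditions overlapped (exact permutation p = 1.0 for each comparison, n = 3). Each of its peaks was listed in 1 replicate only. The highest, of LPS replicate 1 at chr8:34835929-34836167, scored 107.13, at the 32.8th percentile, and lay inside the neighboring gene Tnks, as did another LPS peak and the unstimulated one.

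Dusp5, a nuclear phosphatase selective for ERK, lies on chr19:53529145-53541809. It had 0, 0 and 0 peaks without stimulation, 0, 2 and 1 after LPS, and 0, 0 and 3 after apoptotic cells. The LPS mean was 1.0 ± 1.0 and the unstimulated mean 0.0 ± 0.0 (SD, n = 3, exact permutation p = 0.4), and LPS replicate 1 equalled the unstimulated replicates. Its highest peak was that of LPS replicate 2 in the gene body, at chr19:53533225-53533413, with a score of 185.36 at the 81.1st percentile. Apoptotic cell replicate 3 had a peak of 128.9 further into the gene, and no region of Dusp5 was shared between replicates.

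Among the cytoplasmic phosphatases selective for ERK, Dusp6 had few peaks. It lies on chr10:99263231-99267489 and had 0, 0 and 1 peaks without stimulation, 1, 0 and 0 after LPS, and 0, 0 and 2 after apoptotic cells, with all conditions overlapping (exact permutation p = 1.0 for each comparison, n = 3). Its highest peak, of apoptotic cell replicate 3 at chr10:99261871-99262011, scored 128.9, at the 69.0th percentile, and lay 1220 to 1360 bp upstream of the start. It was the only peak that the deposited tables joined to one of the phosphatase genes, which makes 1 of 9 genes joined to any peak, against 45.3% of protein-coding genes.

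Dusp7 lies on chr9:106368560-106375724. It had 0, 0 and 1 peaks without stimulation, 2, 1 and 4 after LPS, and 0, 2 and 1 after apoptotic cells. The LPS mean was 2.33 ± 1.53 and the unstimulated mean 0.33 ± 0.58 (SD, n = 3; exact permutation p = 0.2), and LPS replicate 2 equalled unstimulated replicate 3. The region at chr9:106388422-106388587, 12698 bp beyond the gene and overlapping no other gene, held the peak with the highest percentile among the recurrent regions. LPS replicates 1 and 3 scored 290.79 and 284.82 there, at the 92.1st and 79.9th percentile of their own peaks, and apoptotic cell replicate 2 scored 133.78, at the 49.9th. No unstimulated replicate had a peak in it. Upstream of Dusp7, from chr9:106358803 to 106363591, single peaks of LPS 1, LPS 2, LPS 3, apoptotic cells 3 and unstimulated 3 lay side by side without touching.

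Among the phosphatases that prefer JNK and p38, Dusp8 lies on chr7:142079487-142095907 and had 1, 0 and 0 peaks without stimulation, 1, 0 and 1 after LPS, and 1, 0 and 0 after apoptotic cells (exact permutation p = 1.0 for each comparison, n = 3). The unstimulated peak lay in the gene body and scored 184.14, at the 80.7th percentile, while the other 3 formed 1 region at chr7:142114960-142115129. LPS replicates 1 and 3 scored 136.64 and 226.93 there, at the 56.4th and 66.1st percentile, and apoptotic cell replicate 1 scored 129.52, at the 56.1st. The scores 136.64 and 129.52 equalled the median scores of these replicates, where tied scores share 1 percentile, so neither was above the median. The region lay 19676 to 19845 bp upstream of the start of Dusp8, inside the gene Gm32786 and 4486 bp from the coding gene Gm45618, so that its assignment to Dusp8 rests on the 20 kb limit.

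Dusp10 lies on chr1:184034381-184075636 and had 0, 0 and 3 peaks without stimulation, 1, 1 and 2 after LPS, and 1, 1 and 1 after apoptotic cells (exact permutation p = 1.0 for each comparison, n = 3). All its unstimulated peaks were in the replicate that stood apart. Its recurrent regions lay upstream, within the noncoding gene Gm39725. The farther one, at chr1:184016087-184016344, held a peak of unstimulated replicate 3 (83.95, 8.70th percentile) and one of LPS replicate 3 (273.02, 78.5th percentile). The nearer one, at chr1:184017457-184018077, held a peak of LPS replicate 2 (89.28, 22.9th percentile) and one of apoptotic cell replicate 1 (91.25, 25.1st percentile).

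Dusp16, whose product acts mainly on JNK and p38, had the most peaks, 23, in the widest window, 131596 bp. This total was at the 86.6th percentile of protein-coding genes, whereas the other phosphatase genes ranged from the 14.9th (Dusp1, Dusp6 and Dusp8) to the 57.8th (Dusp7). The gene lies on chr6:134715468-134807063 and is transcribed towards lower coordinates. It had 1, 0 and 0 peaks without stimulation, 2, 4 and 3 after LPS, and 4, 1 and 8 after apoptotic cells. The LPS mean was 3.0 ± 1.0 against 0.33 ± 0.58 (SD, n = 3; exact permutation p = 0.1), with all LPS replicates above all unstimulated ones. The apoptotic cell mean was 4.33 ± 3.51 (SD, n = 3; exact permutation p = 0.2 against unstimulated), as apoptotic cell replicate 2 equalled unstimulated replicate 1.

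Inside the gene body of Dusp16, the unstimulated replicates had 0, 0 and 0 peaks, the LPS replicates 2, 2 and 1, and the apoptotic cell replicates 2, 1 and 5. The peak with the highest percentile around any phosphatase gene, the 99.9th, was that of LPS replicate 2 at chr6:134732368-134732588, with a score of 651.32, and no other replicate had a peak there. In the gene body, at chr6:134754264-134754522, LPS replicate 1 scored 94.96 (22.8th percentile) and apoptotic cell replicate 3 scored 89.97 (33.3rd percentile). At chr6:134810977-134811395, unstimulated replicate 1 scored 76.2 (7.45th percentile), LPS replicate 2 scored 103.35 (29.4th) and apoptotic cell replicate 3 scored 146.98 (80.2nd). At chr6:134812573-134813059, LPS replicate 2 scored 85.88 (17.0th percentile) and apoptotic cell replicate 3 scored 94.15 (41.2nd), and both of these upstream regions overlapped the gene 1700055D16Rik.

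By the highest score percentile in the window over the 9 replicates, with 0 where no peak was listed, the protein-coding genes most like Dusp16 were Trpv4, Orc4 and Serpinb1c, at Euclidean distances of 34.6, 38.9 and 40.3 percentile points. Each of them had 0, 0 and 0 without stimulation.

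**Figure D3:**
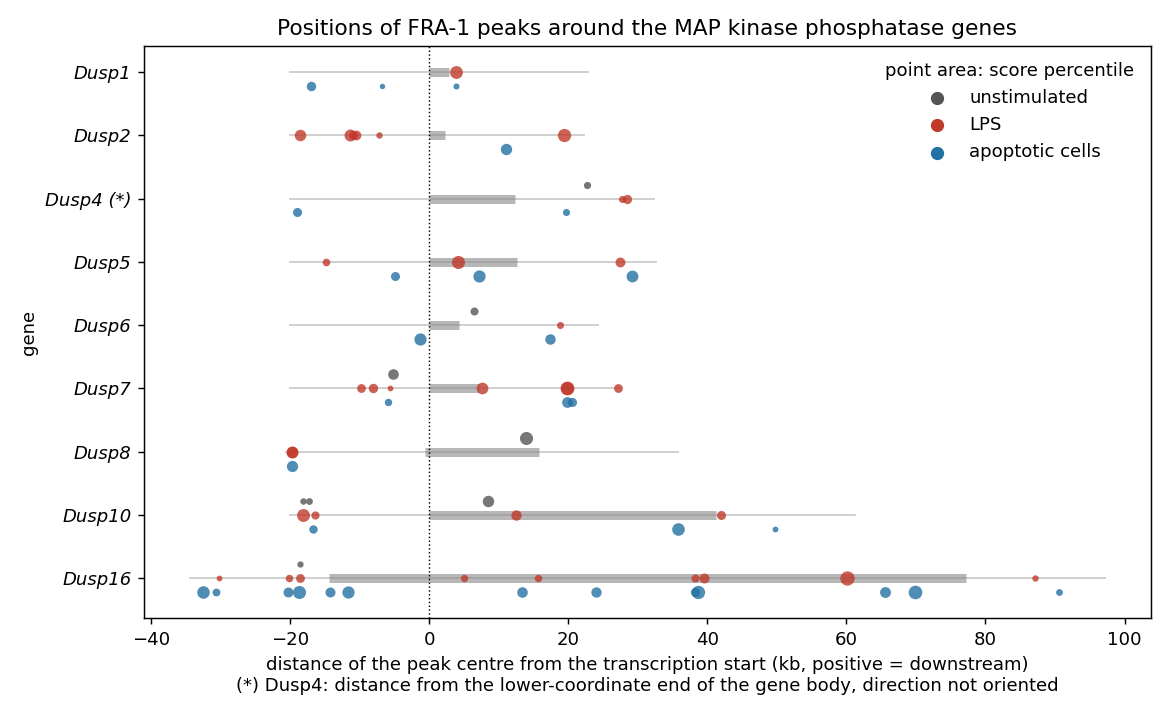
Position of each FRA-1 peak relative to the transcription start of its gene (kb, positive in the direction of transcription), with the gene body as a thick bar and the window as a thin line. Points are peaks, colored by condition, with an area that grows with the score percentile in the own replicate; Dusp4 is drawn by coordinate. The 5 upstream LPS peaks of Dusp2 and the spread of peaks over the body of Dusp16 can be seen, and no point lies at a listed start. The body of Dusp16 reaches upstream of its listed start, with a peak near that outer end.

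By position, 31 of the 69 peaks of the 8 genes other than Dusp4 lay upstream of the gene (44.9%), 19 in the gene body (27.5%) and 19 downstream (27.5%). Over all protein-coding genes with a listed start, 23.5% of peaks lay upstream, 52.1% in the gene body, 23.0% downstream and 1.46% from 1 kb before to 100 bp after the start. With fixed flanks of 20 kb, these shares depend on the length of the gene body, which was not adjusted for. It ran from 2219 bp (Dusp2) to 91596 bp (Dusp16) among these 8 genes. The contrast is therefore not read as a preference for a position. The upstream peaks numbered 4 without stimulation, 16 after LPS and 11 after apoptotic cells. Of the 63 regions, 23 overlapped another gene and 16 were nearer to another coding gene than to the phosphatase gene. Neither count was made over the regions of all genes.

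Few of the regions recurred. Of the 63, 8 had a peak in at least 2 of the 9 replicates (12.7%, against 10.3% of all regions) and 3 in at least 3 (4.76%, against 4.81%). No region had peaks of more than 1 unstimulated or more than 1 apoptotic cell replicate. The regions at Dusp7 and Dusp8 had peaks of 2 LPS replicates, in each case the narrow replicates 1 and 3. LPS and apoptotic cells shared 7 of the 8 recurrent regions. Regions with an unstimulated peak numbered 8, and 6 of them had no other peak. The matching shares of all regions were not computed for these counts by condition. Every stimulated replicate had more peaks in total than every unstimulated one, so the counts are not read as a trait of the phosphatase genes.

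Pooled over the replicates, most peaks around the phosphatase genes did not score above the median of their own replicate. Above the median of their own replicate lay 24 of the 74 peaks (32.4%), against 45.4% of the peaks around all protein-coding genes. They were 2 of 8 without stimulation, 11 of 35 after LPS and 11 of 31 after apoptotic cells. The median percentile was 17.9, 32.8 and 45.1 in the same order. These values pool the peaks of the replicates, and single replicates weigh heavily in them. Apoptotic cell replicate 3 held 21 of the 31 peaks of its condition and 8 of the 11 above the median. Unstimulated replicate 3 held 5 of the 8 unstimulated peaks. The conditions are therefore not compared by these medians. Scores were not normalized between replicates, so that scores of different replicates are set side by side only through their percentiles.

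**Figure D4:**
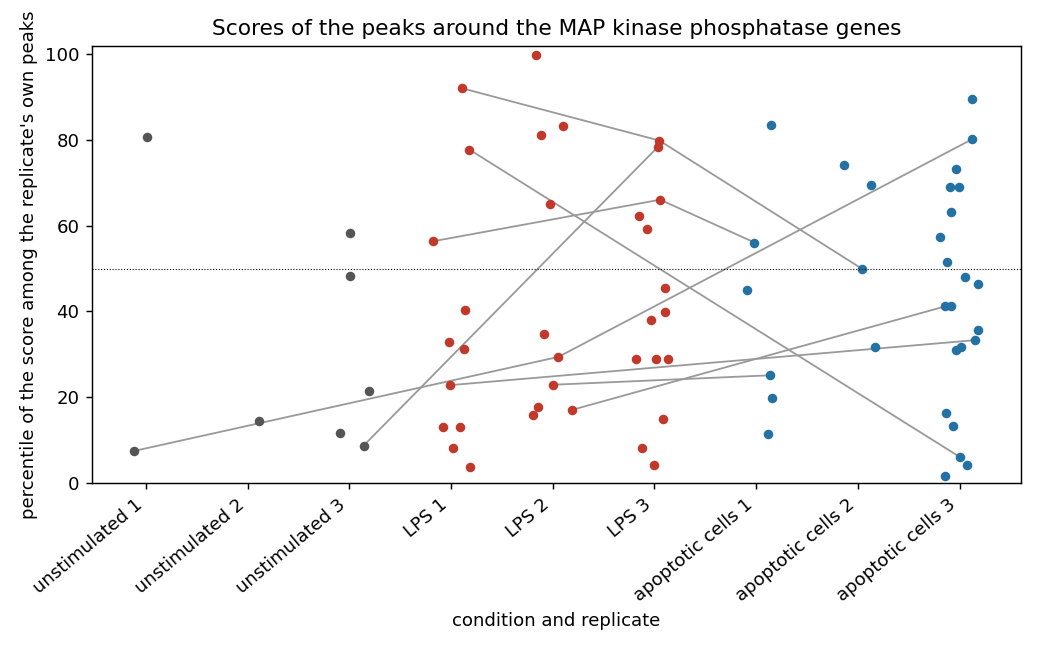
Percentile of each peak's score among all peaks of its own replicate (vertical axis), for the 74 peaks around the phosphatase genes by condition and replicate. Lines join peaks of 1 region found in several replicates, and the dotted line marks the middle of the percentile scale. Most points lie below the dotted line, and the highest is the Dusp16 peak of LPS replicate 2 at 99.9. Peaks tied at the median score of their replicate can lie on either side of the line.

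The other genes of the pathway were counted in the same way, from lists of 51 MAP kinases, their upstream and downstream kinases, further feedback inhibitors and further dual-specificity phosphatases. All 51 had a peak in at least 1 replicate, for which the share of all genes was not computed. In unstimulated macrophages 41 had one, against 78.1% of all genes. Neither count is read as a trait of the pathway. Each LPS replicate exceeded each unstimulated replicate in 7 of 51 (13.7%, against 9.87% of all genes and 2 of 9 phosphatase genes), and 0 of 51 were lower. By list, these were 2 of 9 MAP kinases, 0 of 7 MAP kinase kinases, 1 of 10 MAP kinase kinase kinases, 1 of 9 downstream kinases, 2 of 7 feedback inhibitors and 1 of 9 other dual-specificity phosphatases. Mapk8, which encodes JNK1, a target of Dusp16, had 2, 0 and 1 peaks without stimulation and 4, 3 and 3 after LPS. Mapk14, which encodes p38α, had 1, 2 and 1 against 5, 3 and 8. The ERK pathway inhibitors Spry4 and Spred2 had 0, 1 and 0 against 3, 3 and 9, and 1, 1 and 1 against 4, 2 and 8. Dusp23 had 0, 0 and 0 against 2, 2 and 1, while Araf (1, 0 and 1 against 4, 3 and 6) and Rps6ka1 (0, 0 and 0 against 2, 2 and 5) completed the list. After apoptotic cells, 2 of 51 were above all unstimulated replicates, against 6.56% of all genes, Rps6ka1 with 1, 2 and 4 and Spred2 with 3, 3 and 3.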

How the data were processed

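FRA-1 ChIP-seq peaks of peritoneal macrophages were analyzed in 3 conditions with 3 replicates each, and the 3 pooled inputs were left out. The authors deposited 1 table per condition with a score per genomic segment and replicate, a Phred-scaled p-value of at least 50.01, and -1 for no peak. The submitters' processing notes name BWA 0.7.14, bedtools and GRCm38 (mm10), and the peak caller is not given in the sources used here. The files give no read counts, so that the depth is unknown, and where no peak is listed, binding was not detectable at the authors' threshold. The scores are not normalized between replicates, and many peaks share a score.

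Adjoining segments with the same replicate score were rejoined into peaks, and touching or overlapping peaks were combined into regions. Gene bodies and promoters came from RefSeq (GRCm38.p6), with 20 kb added on each side of the body. Promoter entries matched 8 of the 9 genes, and the first listed start of each gene was used. Peaks per gene were compared by two-sided exact permutation tests for each gene alone, unadjusted, and groups of genes were described by counts beside the share of all protein-coding genes. Replicates are numbered by column order. For equal numbers, the 20981 highest-scoring peaks of each replicate were kept, with ties taken in table order. All 9 phosphatase genes are named, with their regions found in at least 2 replicates or else the highest-scoring one, and the 3 genes most like the gene with peaks in the most replicates (Dusp10 and Dusp16 tied, and Dusp16 was taken for its higher number of peaks). The genes and lists were chosen with earlier results of these data known. The rejoining and calling steps were tested on simulated data. Alternatives changed the window, the score limit, the number of peaks, the replicates used and the merging. Tests used scipy 1.17.1, tables pandas 2.3.3 with numpy 2.4.6, and plots matplotlib 3.10.9, all under Python 3.11.15.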

Additional observations from a re-analysis of the deposited data

How the results depend on the processing

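The number of phosphatase genes with a higher mean after LPS than without stimulation was 8. It was 2 in the gene body alone, 4 with 5 kb on each side, 0 by the deposited symbol, and 5 each with scores above the replicate's median and with equal numbers of top-scoring peaks (6 to 9 leaving out each replicate in turn). For apoptotic cells it was 7, then 2, 3, 1, 4 and 1 in that order, 4 with scores of at least 100, and 3 to 8 leaving out replicates. For LPS over apoptotic cells it was 4, then 0 in the gene body, 2 with 5 kb, 0 by symbol, and 4 to 9 leaving out replicates (9 without apoptotic cell replicate 3). With 50 kb on each side these counts were 8, 9 and 3. With scores of at least 100, the mean after LPS was higher at 8 genes against unstimulated and at 6 against apoptotic cells. The share of all protein-coding genes with a higher mean was not computed, so these counts do not set the phosphatase genes apart. Over all protein-coding genes, the mean per gene was 0.903, 0.728 and 1.02 peaks without stimulation. It was 1.72, 1.37 and 2.53 after LPS, and 1.43, 1.11 and 2.90 after apoptotic cells. Genes with each LPS above each unstimulated replicate numbered 2, against 1 in the gene body and with scores of at least 100 (Dusp16). The count was 0 with 5 kb, by symbol, above the median and with equal numbers, and 3 with 50 kb (Dusp2, Dusp7 and Dusp16). It was 4 and 5 within the narrow and the wide class, and 2 to 4 leaving out replicates (4 without unstimulated replicate 3). For apoptotic cells it was 0, against 1 (Dusp16) in the gene body, with scores of at least 100, above the median and with equal numbers. It was 0 with 50 kb, and 0 to 1 leaving out replicates. The share of all genes was computed with equal numbers and, for LPS only, for the width classes and without unstimulated replicate 3. For the other alternatives it was not computed, so those counts do not set the phosphatase genes apart.

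The summed peaks per 10000 differed between LPS and unstimulated by 1.37, against 0.25 in the gene body, 0.17 with 5 kb, 0.0 by symbol, 0.64 with equal numbers, 0.54 and 1.88 within the narrow and the wide class, and 1.1 to 1.74 leaving out replicates. For apoptotic cells the difference was 0.78, against 0.38 in the gene body, 0.18 with 5 kb, 0.04 by symbol, 0.48 with equal numbers, 0.88 and 0.74 within the narrow and the wide class, and 0.36 to 1.16 leaving out replicates (0.36 without apoptotic cell replicate 3). With 50 kb, with scores of at least 100 and above the median, the LPS difference was 1.81, 1.44 and 1.23. The apoptotic cell difference was 1.16, 1.0 and 0.88 in the same order. Recurrent regions numbered 8, against 3 in at least 3 replicates, 5 when centres within 100 bp were merged, 3 with scores of at least 100, 3 with 5 kb, and 5 to 8 leaving out replicates (5 without apoptotic cell replicate 3). Promoters with an AP-1 motif numbered 0 for TGANTCA and 2 with TGACGTCA included. Genes with a peak at the promoter of their listed start numbered 0, against 1 from 4 kb before that start. The area with all LPS replicates, chosen after seeing the data and found at 1 gene, was found at 0 within 2 kb, with scores of at least 100 and with equal numbers, and at 1 within 10 kb.

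Of 351 differences for single genes under the alternatives, 222 kept their direction or stayed at 0, 110 went to or from 0 and 19 changed sign, whatever the size of the change. LPS minus unstimulated became -0.33 at Dusp8 (gene body, 5 kb, equal numbers) and at Dusp4 (equal numbers, without LPS replicate 1), and -0.17 at Dusp10 (without unstimulated replicate 1 or 2). Apoptotic cells minus unstimulated became -0.33 at Dusp7 (5 kb), Dusp4 (equal numbers, without apoptotic cell replicate 3) and Dusp6 (without that replicate). LPS minus apoptotic cells became -0.67 at Dusp10 (50 kb), -0.33 at Dusp8 (equal numbers), 0.33 at Dusp1 (scores of at least 100, above the median, equal numbers, without apoptotic cell replicate 3), and 0.33 at Dusp6 and 0.5 at Dusp16 (without that replicate). Leaving out each replicate in turn, LPS minus unstimulated ran from -0.33 to 0.67 at Dusp4 and from -0.17 to 1.33 at Dusp10, apoptotic cells minus unstimulated from -0.33 to 0.67 at Dusp4 and at Dusp6, and LPS minus apoptotic cells from -1.17 to 0.33 at Dusp1, from -0.67 to 0.33 at Dusp6 and from -3.0 to 0.5 at Dusp16. The cause was not tested. No paired analysis was possible because no replicate column names its mouse. Motifs in the peak regions were not searched, as no genome sequence was used here. The unknown depth leaves the precision of each peak call unknown.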
